A study of Mus musculus with 8 samples.

Results

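Smc3-deleted Flt3-ITD marrow was set against control marrow on chromosomes 1 to 19, with 2 ATAC-seq libraries of each genotype, 4 of the 8 libraries in the series. ATAC-seq uses a transposase to cut and tag DNA that is not wrapped up in chromatin, so a peak marks an accessible site. Smc3-deleted Flt3-ITD mice carried Mx1-Cre, a floxed Smc3 allele and the Flt3-ITD allele. Control mice were Smc3 fl/+ and lacked Mx1-Cre. Marrow of both genotypes was enriched for c-Kit+ cells 4 weeks after PIpC, and 50000 cells went into each library. Mx1-Cre is an interferon-responsive recombinase that PIpC switches on in blood-forming cells and in some other tissues, so recombination is not restricted to c-Kit+ cells. The genotype label of the first group reads Smc3 fl/del and the title reads Smc3het, so the state of its second Smc3 allele is not settled. Smc3 deletion, Flt3-ITD and Mx1-Cre all differ between the 2 genotypes and cannot be told apart here. Whether the sex of the mice differs too was not tested, and it could not be told apart from them either. The libraries were chosen by file name, and titles and genotype labels put them in the same groups.

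Smc3 is a core subunit of cohesin, a ring that holds sister chromatids together and extrudes chromatin loops, bringing enhancers into contact with promoters. Cohesin genes are mutated in myeloid leukemia, where loss of a single copy is typical. Flt3 is a receptor tyrosine kinase of early blood progenitors, and its internal tandem duplication makes it signal without ligand, among others through Stat5. c-Kit is the receptor for stem cell factor and marks blood stem and progenitor cells.

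The Smc3-deleted Flt3-ITD lists held 78116 and 77629 distinct autosomal peaks, and the control lists 71621 and 62211. Both lists of the mutant genotype were the longer ones, and control replicate 2 was the shortest. Every list was therefore reduced to its 62211 best-ranked peaks, by the authors' score and then by width. The reduction kept 79.6% and 80.1% of the Smc3-deleted Flt3-ITD lists and 86.9% and 100% of the control lists. The lists carry no reads, so sequencing depth is unknown, and neither the Smc3 deletion nor the duplication could be checked in them. Positions of genes in the mm9 build were not used here, so progenitor markers were not examined and regions are given by mm9 coordinates, counted from 1, without genes. The Smc3-deleted Flt3-ITD libraries also differ from control on the sex chromosomes, with 294 and 282 against 89 and 98 peaks on Y, which is why only autosomes were compared.

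Peaks of the 4 lists merged into 106606 autosomal regions, of which 61234 were called in both libraries of at least 1 of the genotypes. All 4 libraries called 38271 regions, 62.5% of those compared, and these are named shared regions here. Smc3-deleted Flt3-ITD cells gained 6492 regions, each called in both of their libraries and in no control library, which is 10.6% of the regions compared. They lost 5378, called in both control libraries and in neither of theirs, which is 8.78%. Gains made up 54.7% of the changed regions. Regions called in a single library had the opposite balance, with 10956 in 1 Smc3-deleted Flt3-ITD library only and 12815 in 1 control library only. Both Smc3-deleted Flt3-ITD libraries called 50723 regions and both control libraries 48782. The surplus of gains thus goes with closer agreement of the Smc3-deleted Flt3-ITD libraries and does not show a net opening. Libraries of 1 genotype shared more calls than libraries of different genotypes: of the regions called in either of a pair, both called 71.0% for the Smc3-deleted Flt3-ITD pair and 67.6% for the control pair, against 58.3% to 59.0% across genotypes. With a library left out, a call in the remaining library of its genotype is enough, so regions of that genotype become more numerous by construction. Without control replicate 1 the gained share was 44.3% and without control replicate 2 it was 42.6%, whereas it was 60.4% and 60.6% without Smc3-deleted Flt3-ITD replicate 1 and 2. The direction thus followed the genotype that was thinned, and these shares do not bear on its stability.

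Most of the changed regions were not at the top of the lists. The 2 Smc3-deleted Flt3-ITD libraries placed gained regions at a median percentile of 43.4 and 43.5, where 100 is the best-ranked peak of a list, against 72.2 and 71.8 for shared regions. Lost regions stood at 38.9 and 27.6 in the 2 control libraries. Percentiles refer to the full lists, of which the reduction kept 79.6% and 80.1% in Smc3-deleted Flt3-ITD and 86.9% and 100% in control. The lowest percentile possible therefore differs between libraries, and those of gains and losses are not on the same scale. Both Smc3-deleted Flt3-ITD libraries gave the highest score to 533 gained regions (8.21%), and 56.1% of shared regions had it in both.

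The choice of peaks changed these numbers. The share of peaks with a score of exactly 1 was 43.9% and 44.0% in the reduced Smc3-deleted Flt3-ITD lists and 35.8% and 31.8% in the control lists, so keeping only such peaks takes more of them from the mutant genotype. In the full lists 10217 regions were gained, 14.6% of 70219, and 4143 were lost, 5.9%. Of the 6492 gains at equal length, 5518 (85.0%) were gained in the full lists too, and these were 54.0% of the full-list gains. Of the 5378 losses, 3526 (65.6%) were also lost in the full lists, 85.1% of the full-list losses. For 621 further losses (11.5%) both Smc3-deleted Flt3-ITD libraries did hold a peak in the region, below the length limit, and for 1231 (22.9%) 1 of them did. Among gains, 974 (15.0%) had such a low-ranked peak in 1 control library and none in both. Control replicate 2 had no peaks below the limit, so no such peak could be found in it.

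**Figure D1:**
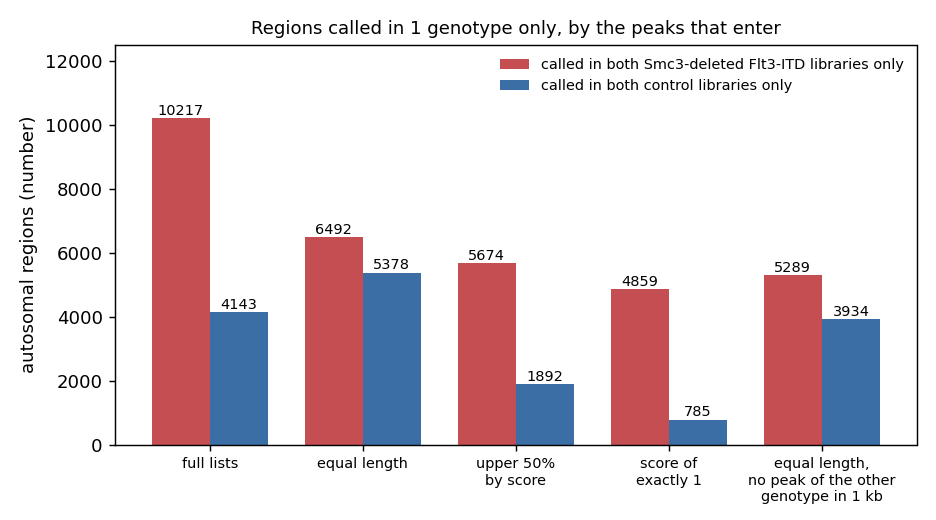
Bars count autosomal regions gained (left bar of each pair) and lost (right bar) in Smc3-deleted Flt3-ITD, for 5 ways to choose the peaks that enter. Gains outnumber losses in each, from 6492 against 5378 at equal length to 4859 against 785 for scores of exactly 1.

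Losses lay closer than gains to accessible sites that both genotypes kept, although most regions of either kind had none within 1 kb. A gained region had its nearest shared region at a median distance of 11.5 kb, and a lost region at 6.84 kb. Within 1 kb of a shared region lay 500 gained regions, 7.70% (exact 95% interval 7.06 to 8.38), and 760 lost regions, 14.1% (13.2 to 15.1). Within 10 kb the shares were 46.8% (45.6 to 48.0) for gains and 58.7% (57.4 to 60.0) for losses. At the far end, 608 gains (9.37%) and 360 losses (6.69%) had no shared region within 100 kb. These intervals cover counting error over regions only, and since each region is defined over all 4 libraries, the distances were not tested over samples. The median distance was longer for gains than for losses in every way of choosing peaks or calls that was run, and without each library.

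Regions that were seen in a single library had the same order of distances. Within 1 kb of a shared region lay 12.1% of those seen in 1 Smc3-deleted Flt3-ITD library only and 17.1% of those seen in 1 control library only, each above the repeated gains or losses of its genotype. Those called by Smc3-deleted Flt3-ITD replicate 1 or 2 alone lay at medians of 9.14 and 9.29 kb from the nearest shared region, those of control replicate 1 or 2 alone at 7.17 and 6.09 kb. The lists of the mutant genotype thus reached farther from shared regions even where its libraries did not repeat each other. Whether sequencing depth has a part in this was not tested.

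**Figure D2:**
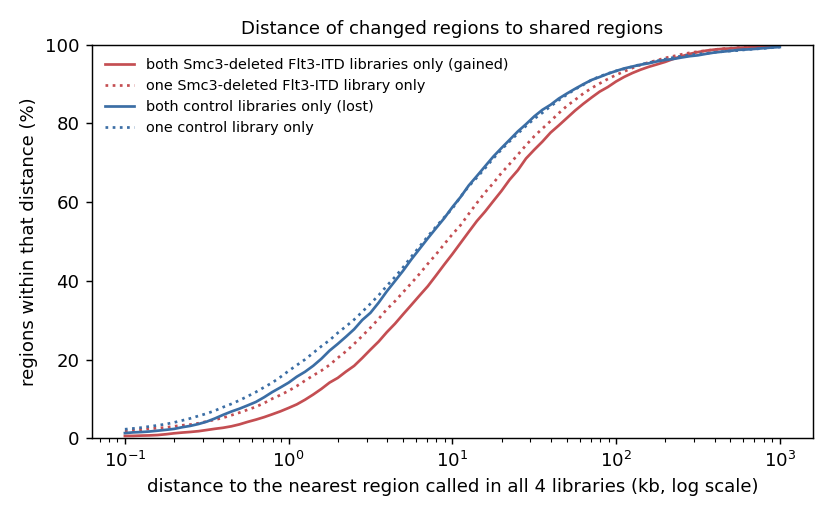
Lines give the percentage of regions (vertical axis) whose nearest region called in all 4 libraries lies within the distance on the horizontal axis (kb, log scale), for gained and lost regions (solid) and for regions called in a single library of a genotype (dotted). At 10 kb the gained line stands at 46.8% and the lost line at 58.7%.

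Some changed regions had a peak of the other genotype close by. At equal length a control peak lay within 1 kb of 1203 gained regions (18.5%), and a Smc3-deleted Flt3-ITD peak within 1 kb of 1444 lost regions (26.9%). The remaining 5289 gained and 3934 lost regions had none, and gains were 57.3% of these. The full lists also hold low-ranked peaks inside the regions themselves, so neighbours were counted there only for regions without such a peak. They were found beside 1126 of 5518 gained regions (20.4%) and 1134 of 3526 lost regions (32.2%). The Smc3-deleted Flt3-ITD lists are the longer ones, which gives lost regions more peaks that could lie nearby. No peak of the other genotype within 1 kb in the full lists, inside or outside, was left for 4392 gained (67.7%) and 2392 lost regions (44.5%).

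Gains were spread over all chromosomes, but not evenly. They made up between 7.97% of the regions compared on chromosome 11 and 12.8% on chromosome 18, a 1.61-fold range. Losses ran from 7.27% on chromosome 8 to 10.0% on chromosome 9, a 1.38-fold range. At equal length gains outnumbered losses on 16 of 19 autosomes, and losses outnumbered gains on chromosomes 7, 9 and 11. In the full lists gains were more frequent on all 19. Chromosomes with few shared regions had the highest share of gains: chromosome 14, with 11.6 shared regions per Mb, gained 12.5% and lost 7.69%, while chromosome 11, with 22.0 per Mb, gained 7.97% and lost 8.57%. Across the 19 chromosomes the share gained fell with the density of shared regions (Spearman's rho -0.90, Pearson's r -0.82), and the share lost did not follow it (rho 0.11, r 0.11). These are descriptions over chromosomes that share the same 4 libraries, and shared regions are part of the denominator of both shares.

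**Figure D3:**
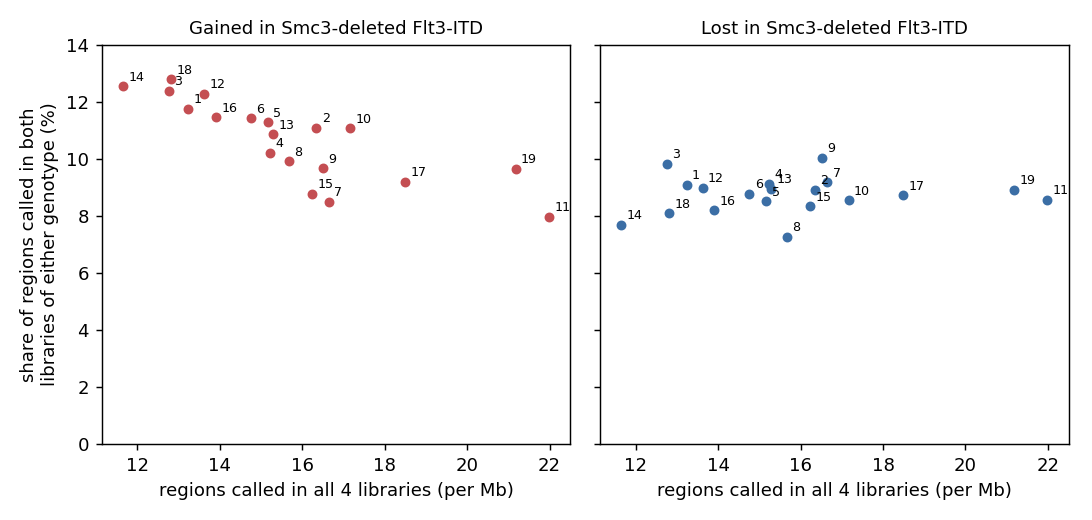
Each point is an autosome, with the number of regions called in all 4 libraries per Mb on the horizontal axis and the share of compared regions that were gained (left) or lost (right) in Smc3-deleted Flt3-ITD on the vertical axis (%). Gained shares range from 12.8% on chromosome 18 to 7.97% on chromosome 11, and lost shares stay between 7.27% and 10.0%.

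In windows of 1 Mb both shares fell as shared regions became denser, the gained share more steeply. From windows with 0 to 4 shared regions to 5 to 9, 10 to 19, 20 to 29 and 30 or more, gains made up 22.7%, 16.2%, 12.7%, 10.9% and 7.75% of the regions compared. Losses made up 14.4%, 10.1%, 9.18%, 8.71% and 8.03%, a fall that the chromosomes did not show. Shared regions count in these denominators and define the windows, so a fall is built in for both. Where a window held 0 to 4 shared regions, 479 regions were gained and 303 lost, so gains were 61.3% of changed regions. Their share was 61.6% with 5 to 9 shared regions, 58.0% with 10 to 19, 55.6% with 20 to 29 and 49.1% with 30 or more, where 2129 were gained and 2204 lost. In the full lists the corresponding shares were 73.8%, 74.1%, 75.1%, 72.3% and 67.7%, and in the upper 50% of each list 82.1%, 77.2%, 75.2%, 70.4% and 70.5%. Both choices take more peaks from the longer Smc3-deleted Flt3-ITD lists, so the level of these shares cannot be set against that at equal length. Windows with 30 or more shared regions held the lowest share of gains among changed regions at equal length and in the full lists, and nearly the lowest in the upper 50%. Of 2337 windows, 579 had no gain and 693 no loss. The median window had 2 of each, and 45 windows held 10 or more gains and 39 windows 10 or more losses.

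The windows with the most gains included a tract with few peaks in control cells. Chromosome 5 from 11 to 12 Mb held 17 gained regions, no lost region and 1 shared region. Its full lists had 26 and 25 peaks in Smc3-deleted Flt3-ITD, against 8 and 2 in control. The window was picked for its gains, which sets the direction of this difference, and the full lists differ in length. The Flt3-ITD single genotype had 12 and 11 peaks there and Smc3 del/+ 4 and 6. Chromosome 2 from 52 to 53 Mb held 18 gained, 1 lost and 16 shared regions, with 72 and 64 peaks in Smc3-deleted Flt3-ITD and 37 and 31 in control. The other tract with 18 gains, chromosome 6 from 128 to 129 Mb, was open in all libraries, with 88 and 83 peaks against 71 and 59 in control. It lost 3 regions.

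The 3 windows with the most losses were rich in shared regions and had many peaks in both genotypes. They lay on chromosome 12 from 116 to 117 Mb (14 lost, 4 gained, 50 shared), chromosome 2 from 153 to 154 Mb (13 lost, 2 gained, 29 shared) and chromosome 6 from 88 to 89 Mb (13 lost, 7 gained, 38 shared). Peaks there numbered 82 and 77 in Smc3-deleted Flt3-ITD and 89 and 84 in control on chromosome 12. On chromosome 2 they numbered 58 and 56 against 59 and 54. On chromosome 6 they numbered 77 and 76 against 80 and 64, so both Smc3-deleted Flt3-ITD libraries had more than control replicate 2. These counts are from the full lists, which are 16.4% longer on average in Smc3-deleted Flt3-ITD.

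The libraries of the single genotypes were not used to choose gained or lost regions, so calls in them are a separate measurement, although gains and losses both rest on the control libraries. Gained regions were called in 43.3% and 40.2% of cases by the 2 Flt3-ITD libraries and in 17.4% and 19.1% by the 2 Smc3 del/+ libraries. Lost regions showed the other order, with 37.9% and 37.4% called in Flt3-ITD and 59.8% and 60.0% in Smc3 del/+. This order of the lost regions depended on the peaks that enter: the difference of Flt3-ITD minus Smc3 del/+ was -22.2 percentage points at equal length, -29.1 in the full lists and -8.03 in the upper 50%, and it turned to 14.2 with scores of exactly 1. For gained regions it was 23.4 points at equal length and 13.2 to 16.4 in these 3. Peaks with a score of exactly 1 made up 33.4% and 32.1% of the Flt3-ITD lists and 27.3% and 27.5% of the Smc3 del/+ lists. Keeping only such peaks thus removes more from Smc3 del/+, and no share over all regions is given for that choice. Over all regions compared, the Flt3-ITD libraries called 79.9% ± 0.706 and the Smc3 del/+ libraries 75.3% ± 0.643 (SD, n = 2 each). Both differences were larger than the spread between libraries, and no test of 2 against 2 libraries can go below an exact two-sided p of 0.33. For the single genotypes, the description field names the other genotype than title and genotype label do. Title and genotype label set the groups here, and by the description field these values would change places.

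Regions that a single Smc3-deleted Flt3-ITD library called, with none in control, gave a scale for this. The Flt3-ITD libraries called 24.0% ± 1.07 of them and the Smc3 del/+ libraries 18.5% ± 0.678 (SD, n = 2 each). Repeated gains thus stood above single calls in Flt3-ITD (41.7% ± 2.21) and close to them in Smc3 del/+ (18.3% ± 1.21). Of regions that a single control library called, Flt3-ITD libraries called 22.9% ± 0.0552 and Smc3 del/+ libraries 33.0% ± 1.23, against 37.7% ± 0.381 and 59.9% ± 0.0920 of the repeated losses (SD, n = 2 each).

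Taken by region, 2364 gains (36.4%) were called in no library of either single genotype. Both Flt3-ITD libraries and no Smc3 del/+ library called 897 gains (13.8%), the reverse held for 103 (1.59%), and all 4 single-genotype libraries called 313 (4.82%). Gains seen in Smc3-deleted Flt3-ITD alone ranked lower in its lists (median percentile 37.9) than those shared with Flt3-ITD only (53.5), and lay farther from shared regions (13.8 kb against 11.5 kb). Among losses, 691 (12.8%) were absent from both single genotypes as well. A further 1356 (25.2%) were kept in both Smc3 del/+ libraries and absent from both Flt3-ITD libraries, the reverse held for 299 (5.56%), and 606 (11.3%) were kept in all 4. Losses absent from both single genotypes stood at a median percentile of 24.2 in control, against 43.4 for those that all 4 kept.

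**Figure D4:**
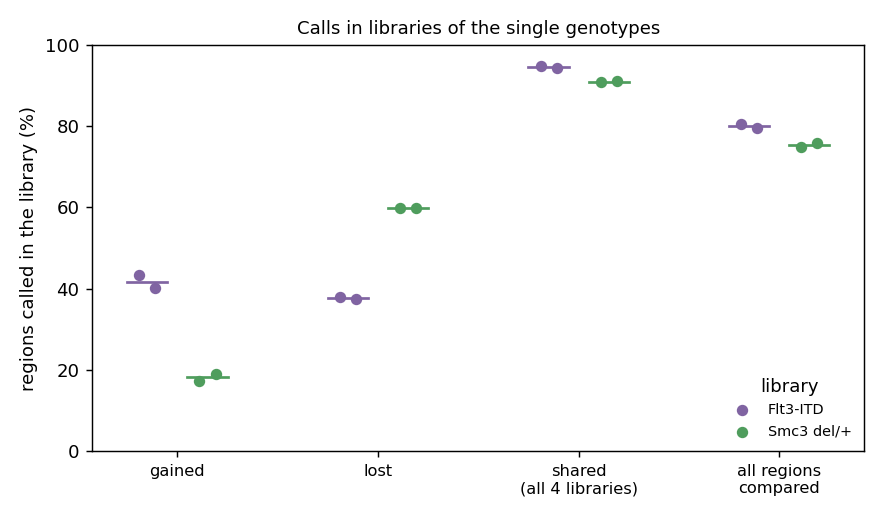
Points give the percentage of gained, lost, shared and all compared regions (horizontal axis) that each single-genotype library called, 2 Flt3-ITD and 2 Smc3 del/+ libraries, and bars give the means. Gained regions stand at 43.3% and 40.2% in Flt3-ITD and 17.4% and 19.1% in Smc3 del/+, and lost regions in the opposite order at equal length, an order that turns with scores of exactly 1.

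The 12 best-ranked gains with no control peak within 1 kb, out of 4392, lay on 9 chromosomes. Peaks tied at a score of 1 were ranked by width, so the wide cover of these regions follows from the choice. The first was chromosome 3:51512794-51514082, where peaks covered 1183 and 1087 bases in Smc3-deleted Flt3-ITD and none in control. Flt3-ITD libraries covered 537 and 639 bases of it, and Smc3 del/+ replicate 2 covered 458. Next came chromosome 1:184684693-184685861, with 1025 and 1169 bases, and 1045 and 366 in Flt3-ITD but none in Smc3 del/+. All 12 had a peak in at least 1 Flt3-ITD library, 10 of them in both. No Smc3 del/+ library had a peak in 7 of the 12, and none of the 12 was called in both Smc3 del/+ libraries. Over all 6492 gains, the Flt3-ITD libraries called 43.3% and 40.2% and the Smc3 del/+ libraries 17.4% and 19.1%. No library of either single genotype called 36.4% of all gains. The 12 were picked by rank and do not stand for all gains.

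Several of these gains stood far from any site open in all 4 libraries. Chromosome 9:67271464-67272753 lay 379 kb from the nearest shared region and 209 kb from the nearest control peak, with 1290 and 834 bases covered in Smc3-deleted Flt3-ITD. Chromosome 1:92264805-92266203 lay 234 kb from a shared region (598 and 1399 bases), and chromosome 12:109199911-109200971 lay 216 kb from one (1011 and 1061 bases). Chromosome 3:21366579-21367919 lay 165 kb away, with 1341 and 742 bases. The closest of the 12, chromosome 7:105951397-105952535, was 0.651 kb from a shared region. The others were chromosome 15:27792270-27793514, chromosome 9:64411703-64413011, chromosome 19:21569976-21571368, chromosome 5:93362913-93364033 and chromosome 10:41249404-41250742.

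The 12 best-ranked losses with no Smc3-deleted Flt3-ITD peak within 1 kb, out of 2392, were mostly open elsewhere in the series. As for the gains, their wide cover in control follows from ranking tied scores by width. Both Smc3 del/+ libraries called 11 of the 12 and both Flt3-ITD libraries 7. Over all 5378 losses, the Smc3 del/+ libraries called 59.8% and 60.0% and the Flt3-ITD libraries 37.9% and 37.4%. No library of either single genotype called 12.8% of all losses. The 12 were picked by rank and do not stand for all losses. At the first of the 12, chromosome 3:84575141-84576699, no base was covered in Smc3-deleted Flt3-ITD, against 1275 and 1559 in control. Flt3-ITD libraries covered 327 and 302 bases there and Smc3 del/+ libraries 629 and 376. Chromosome 16:59246252-59248905 was the widest, with 1298 and 2482 bases in control, and the nearest Smc3-deleted Flt3-ITD peak lay 155 kb away. Chromosome 1:146985758-146987069 had 1189 and 1312 bases in control and its nearest Smc3-deleted Flt3-ITD peak at 151 kb. Chromosome 5:80239398-80240723 had 1012 and 1172 bases in control, with its nearest Smc3-deleted Flt3-ITD peak at 155 kb.

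A second kind of loss was shared with Flt3-ITD. Chromosome 4:144622961-144624159 was covered over 1199 and 1059 bases in control and 1106 and 1000 in Smc3 del/+, with no peak in either Smc3-deleted Flt3-ITD or Flt3-ITD library. Chromosome 11:84636728-84637922 (1035 and 1182 bases in control) and chromosome 8:131212248-131213409 (839 and 1162) followed the same pattern. Chromosome 2:56968943-56969970 (1028 and 443 bases in control) was called in no other library. The remaining regions were chromosome 7:52712481-52713587, chromosome 9:40264644-40266016, chromosome 19:5793699-5795632 and chromosome 2:179349533-179350113.

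Peaks themselves were slightly narrower in the mutant genotype. At equal length the median width was 403 and 404 bp in Smc3-deleted Flt3-ITD and 408 and 409 bp in control, a difference of -5 bp that had the smallest p this design allows (exact permutation test, two-sided, p = 0.33). The upper quartile was 504 and 518 bp, against 541 and 577 bp in control. In the 38271 shared regions peaks covered over 600 bases in 21.7% and 22.6% of regions in Smc3-deleted Flt3-ITD and in 23.5% and 25.7% in control. Over 1000 bases were covered in 11.8% and 12.4%, against 13.2% and 13.8% in control. In each of these measures both Smc3-deleted Flt3-ITD libraries lay below both control libraries. In the full lists of the series, longer lists mostly had narrower medians. The Smc3-deleted Flt3-ITD lists of 78116 and 77629 peaks had 405 and 407 bp, and the control lists of 71621 and 62211 peaks both had 409 bp. The Flt3-ITD lists of 64430 and 61542 peaks had 423 and 425 bp, and the Smc3 del/+ lists of 59492 and 60894 peaks 435 and 432 bp. The part of list length in the width difference was not tested.

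**Figure D5:**
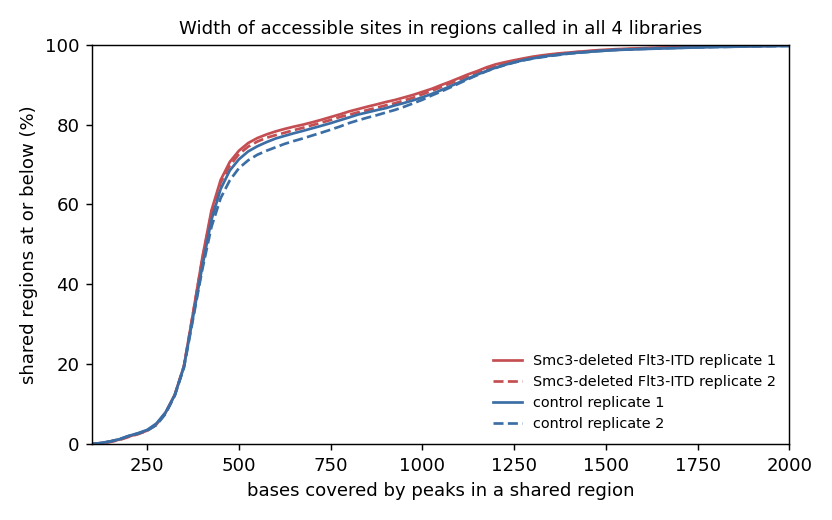
Lines give the percentage of the 38271 shared regions (vertical axis) in which a library's peaks cover at most the number of bases on the horizontal axis, 1 line per library. The lines overlie each other below about 400 bases, and the Smc3-deleted Flt3-ITD lines run higher above it, with 21.7% and 22.6% of regions over 600 bases against 23.5% and 25.7% in control.

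No single shared region passed a test for a change in width. limma on log2 covered bases, with library medians set equal, called 0 of 38271 regions wider and 0 narrower at a Benjamini-Hochberg adjusted p of 0.05 (0% each), and the smallest adjusted p was 0.853. At an unadjusted p under 0.05 it gave 796 wider (2.08%) and 896 narrower regions (2.34%). In 6026 regions (15.7%) both Smc3-deleted Flt3-ITD values lay above both control values, and in 7135 (18.6%) both lay below. If the 4 libraries were interchangeable, such a separation in either direction would have a probability of 0.33 per region. These counts by themselves therefore do not show a change in width. The median standard error of a log2 difference was 0.35, and a count of 0 does not show that widths were alike. On simulated data of this design the same fit called 0 of 50 planted changes of 2-fold and 0 of 50 of 4-fold. It called 16 of 50 at 16-fold and 33 of 50 at 256-fold.

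The regions with the smallest unadjusted p in each direction are given as values, since none passed. At chromosome 13:55311196-55314950 peaks covered 3530 and 3635 bases in Smc3-deleted Flt3-ITD and 363 and 283 in control, a log2 difference of 3.50 ± 0.28 (SE, n = 2 each; limma adjusted p = 0.853). Flt3-ITD libraries covered 1302 and 2026 bases of it and Smc3 del/+ libraries 367 and 378, so the wide form was found in the libraries labelled with Flt3-ITD. At chromosome 9:116007452-116008713 the values were 827 and 911 against 180 and 199 in control, and 1212 and 846 in Flt3-ITD. Chromosome 18:82638975-82640402 had 1330 and 1400 against 181 and 195, and there the Smc3 del/+ libraries (1038 and 751 bases) were wider than those of Flt3-ITD (242 and 182).

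On the narrower side, chromosome 17:17760974-17763239 was covered over 1349 and 1379 bases in Smc3-deleted Flt3-ITD and 2208 and 2259 in control, a log2 difference of -0.69 ± 0.039 (SE, n = 2 each; limma adjusted p = 0.853). Chromosome 12:112404386-112405267 had 195 and 196 bases against 879 and 868 in control, and chromosome 1:166012564-166013646 had 166 and 187 against 650 and 626. In the single genotypes the chromosome 17 region had 378 and 1093 bases in Flt3-ITD and 538 and 1345 in Smc3 del/+, all below the Smc3-deleted Flt3-ITD values. The chromosome 12 region had 297 and 372 in Flt3-ITD and 312 and 832 in Smc3 del/+. For the chromosome 1 region the values were 376 and 117 in Flt3-ITD and 723 and 399 in Smc3 del/+. In each region the libraries of at least 1 single genotype were widely spread.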

How the data were processed

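The deposited files are ATAC-seq peak lists, 1 per library, with no read counts. The deposited score of each peak is the authors' own value between 0.99 and 1, of unstated meaning, and served to rank peaks within a list. Bowtie and mm9 are named in the submitters' processing notes; no source used here names the peak caller. Whether both libraries of a genotype are from separate mice is not labelled, and p-values cover the spread between these libraries only, which may be technical.

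Intervals listed more than once on autosomes (830 extra lines over the 4 lists) were removed. Overlaps of 1 bp or more were merged. Each list was cut to 62211 peaks; Flt3-ITD replicate 2 and Smc3 del/+ lists were shorter and left whole. Regions were named by rule: the 12 best-ranked gains and losses with no peak of the other genotype within 1 kb, the 3 shared regions with the smallest p in each direction of width, since none passed (6 had been planned where any passed), and the 3 windows of 1 Mb with the most gains or losses. Members, lists and tests were chosen with earlier results of these data known. Merging, calling and the limma fit were tested on simulated data. There limma found none of the planted width changes of 2-fold and 4-fold, and only part of those of 16-fold and 256-fold. Software was limma 3.58.1 in R 4.3.3, and scipy 1.17.1, pandas 2.3.3, numpy 2.4.6 and matplotlib 3.10.9 in Python 3.11.15. Gene lists planned for an mm9 annotation were not used here.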

Additional observations from a re-analysis of the deposited data

Results flagged for a closer look

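Chromosome Y lay outside the comparison of autosomes. Smc3-deleted Flt3-ITD lists held 288 peaks on Y on average (294 and 282), above the 93.5 of control (89 and 98). The X chromosome held 2.66% ± 0.0818 of peaks in Smc3-deleted Flt3-ITD and 3.49% ± 0.00304 in control (SD, n = 2 each).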

How the results depend on the processing

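The peaks that enter set the size and balance of the change. Gains were 10217 with full lists. Losses fell to 1892 in the upper 50% by score and 785 with scores of exactly 1. The gained share was 71.1% with full lists, 74.99% in the upper 50%, 86.1% with scores of exactly 1, 57.3% with no peak of the other genotype within 1 kb and 53.5% when peaks had to cover 50% of a region. Full lists, the upper 50% and scores of exactly 1 let more peaks enter from Smc3-deleted Flt3-ITD than from control. Leaving out 1 library gave 10021 to 12913 gains, 8247 to 14972 losses and a gained share of 42.6% to 60.6%, with 44.3% and 42.6% without control replicate 1 and 2.

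The share of gains minus that of losses within 1 kb of a shared region (-6.43 percentage points) was -3.37 with scores of exactly 1, -1.81 with 50% cover and -0.279 with no peak of the other genotype within 1 kb, a setting that removes most such regions by construction. It ran from -8.40 to -4.80 without 1 library. The difference between Flt3-ITD and Smc3 del/+ libraries in calling gains (23.4 points) was 16.4 with full lists, 13.2 in the upper 50% and 14.5 with scores of exactly 1. For losses (-22.2 points) it was -29.1, -8.03 and, reversed, 14.2, and -23.4 with all lists at the shortest of the 8. The cause was not tested. The 50% cover and the shortest of 8 were chosen after seeing the data. The planned overlap of 50% of a region or peak could give no other value, since every peak lies inside its region.

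The width difference stayed between -5.5 and -3 bp, and limma called 0 regions in every setting, which says nothing about stability, since the fit misses most changes of moderate size on simulated data. Replicates sharing a number did not deviate together (correlation -0.0074), and the replicate block also called 0 wider and 0 narrower regions (smallest adjusted p 0.884; 575 and 598 at an unadjusted p under 0.05). Depth is unknown, so missing peaks cannot be told from closed sites.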
